A study of Homo sapiens with 12 samples.

Results

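The 9 genes described here are the ID family (ID1, ID2, ID3 and ID4) and the feedback arm of BMP signaling (the ligands BMP4 and BMP7, the secreted antagonist GREM1, and the inhibitory SMADs SMAD6 and SMAD7). They were chosen by gene symbol, with earlier results of these data known, from 65975 gene identifiers in the table. They were followed through 4 groups of rhabdomyosarcoma (RMS) cells. These 9 symbols have 11 entries, since GREM1 has 2 further ones that hold 0 in every library and were not used. RNA-seq was carried out on RD cells, a fusion-negative (FN-RMS) line, and Rh30 cells, a fusion-positive (FP-RMS) line, each stably transduced with lentivirus for a control (Scrambled) shRNA, called Scramble, or a KDM3A-targeting shRNA, called KDM3A-sh2, and selected with 1 ug/ml puromycin. KDM3A is a Jumonji-domain histone demethylase, and the study asked which genes it controls in RMS. There were 3 libraries in each group, numbered by their titles. In the other label, which names the columns of the table, all 3 Rh30 Scramble libraries end in the number 1, while every other group runs from 1 to 3, and what that number stands for is not given in the sources used here. Each subtype was represented in these libraries by 1 cell line and the depletion by 1 shRNA. RD cells were grown in DMEM and Rh30 cells in RPMI, so line and medium cannot be told apart. Whether the 3 libraries in a group were grown as separate cultures is not stated in the sources used here, so all p-values measure the spread between these libraries.

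BMP ligands bind paired type I and type II serine/threonine kinase receptors, which phosphorylate the receptor SMADs; these join SMAD4 and switch on target genes. ID1, ID2 and ID3 are classical targets, and the pathway also raises its own brakes: SMAD6 and SMAD7 block the receptors and receptor SMADs, and GREM1 (Gremlin) captures ligand outside the cell. ID proteins carry a helix-loop-helix but no DNA-binding region, so they bind E proteins and keep them from pairing with myogenic factors such as MyoD, which in muscle precursors holds back differentiation.

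KDM3A itself fell in both lines, from 33.5 ± 2.504 to 12.2 ± 1.09 FPKM (SD, n = 3) in RD, while Rh30 went from 29.7 ± 2.14 to 14.1 ± 1.15 FPKM. FPKM divide the fragments of a gene by its transcript length and by library size, so levels of different genes can be set side by side. They hide the number of reads. Relative depth, read from the spacing of low values, lay between 0.863 and 1.205 times the median library, with the KDM3A-sh2 libraries of each line below its Scramble libraries. Of 7 muscle lineage markers, 6 had a mean of at least 1 FPKM in every group, and none of 5 leukocyte markers did. Of 5 endothelial markers, TIE1 alone carried the summed level in RD (log2 fold change -0.94, adjusted p = 0.000616), which was 18.4 to 19.4 FPKM with Scramble and 8.76 to 11.4 FPKM with KDM3A-sh2, while CDH5 did not pass 0.484 FPKM in any library. In Rh30, where TIE1 changed by -0.60 (adjusted p = 0.0412, lost in 9 of 14 alternatives), the same sum was 2.87 to 4.34 FPKM with Scramble and 1.86 to 2.59 FPKM with KDM3A-sh2. Of 5 epithelial markers, EPCAM alone had a group mean of at least 1 FPKM, and only in Rh30. The highest single libraries of KRT14 (Rh30 KDM3A-sh2) and KRT19 (Rh30 Scramble) held 1.17 and 1.07 FPKM. The part of these shifts in the results below was not tested. In whole cultures, fewer cells that express a gene and less RNA per cell cannot be told apart.

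Promoter sequences of 8 of the 9 genes (13 annotated starts) were taken from RefSeq on GRCh38.p14, as the 250 bases before each start. BMP7, which also rose in Rh30 cells, had no promoter entry. The 4 shown belong to SMAD6, ID1 and ID3, which rose together in Rh30 cells, and to ID2, which fell in RD cells, so that the letters around the starts can be read beside the values. Capitals mark GTCT or its reverse complement AGAC, the SMAD box.
SMAD6 (chr15:66701986-66702235, + strand): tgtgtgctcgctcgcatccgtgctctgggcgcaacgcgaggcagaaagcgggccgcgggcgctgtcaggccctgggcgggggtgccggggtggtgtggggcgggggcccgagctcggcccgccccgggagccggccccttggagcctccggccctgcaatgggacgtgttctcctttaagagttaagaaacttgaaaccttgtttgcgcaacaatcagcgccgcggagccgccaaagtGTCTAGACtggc
ID1 (chr20:31605039-31605288, + strand): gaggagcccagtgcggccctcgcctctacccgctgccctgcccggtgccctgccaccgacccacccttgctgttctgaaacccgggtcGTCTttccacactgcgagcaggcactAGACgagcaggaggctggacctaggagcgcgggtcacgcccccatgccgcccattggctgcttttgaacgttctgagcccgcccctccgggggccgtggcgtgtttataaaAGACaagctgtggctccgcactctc
ID3 (chr1:23559502-23559751, - strand): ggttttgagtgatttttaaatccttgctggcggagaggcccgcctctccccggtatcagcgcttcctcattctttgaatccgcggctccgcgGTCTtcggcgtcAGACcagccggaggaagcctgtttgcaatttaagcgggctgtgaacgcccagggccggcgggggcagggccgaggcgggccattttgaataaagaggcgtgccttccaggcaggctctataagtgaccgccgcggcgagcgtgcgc
ID2 (chr2:8681806-8682055, + strand): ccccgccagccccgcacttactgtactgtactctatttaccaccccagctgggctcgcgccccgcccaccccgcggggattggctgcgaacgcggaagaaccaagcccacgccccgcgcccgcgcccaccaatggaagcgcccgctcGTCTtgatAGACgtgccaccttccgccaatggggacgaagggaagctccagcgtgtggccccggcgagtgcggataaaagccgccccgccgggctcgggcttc
SMAD boxes were found in 12 of the 13 promoters, a common word that 77.5% of all 35116 promoters hold in this window. The palindrome GTCTAGAC, made of 2 abutting boxes, was found in the SMAD6 promoter alone, 12 to 5 bases before the start, and 0.182% of all promoters hold it. GGCGCC, a GC-rich word seen in BMP response elements, was present in 1 promoter of BMP4 and 1 of GREM1 (16.4% of all promoters). The E-box CAGCTG was present in ID2 and ID4 (14% of all promoters). Both strands were searched, and these matches describe letters, not binding.

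**Figure D1:**
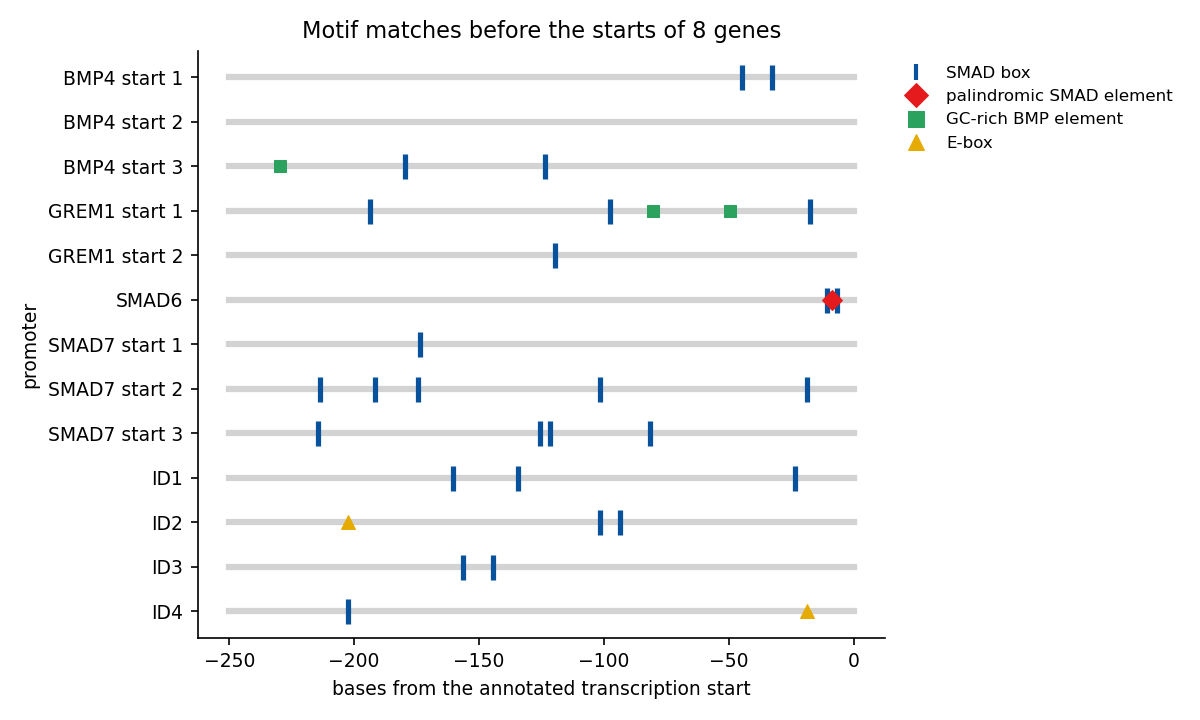
Matches of 4 motifs in the 250 bases before 13 annotated starts of 8 genes; the horizontal axis gives bases from the start, and each mark is 1 match on either strand. The palindrome lies in SMAD6 alone, next to its start, while SMAD boxes are spread over 12 of the 13 promoters.

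Of the 9 genes, 8 passed the filter of a mean of 1 FPKM and were tested, and ID4 did not. With KDM3A-sh2, RD cells had 1 gene higher (ID3) and 4 lower (ID1, ID2, SMAD7 and GREM1), while 21.6% of all genes tested were called higher and 19.5% lower. Rh30 cells had 4 genes higher (ID1, ID3, SMAD6 and BMP7) and 1 lower (SMAD7), against 15.3% and 13.2% of all genes tested. The effect itself differed between the lines for 6 of the 8 genes, each time higher in Rh30 (ID1, ID2, ID3, SMAD6, BMP7 and GREM1), while 14.4% of all genes differed in that direction and 13.4% in the other. These shares are 2665 genes above and 2486 below 0, and after rescaling of all libraries to the same sum they were 2061 and 3015. The median log2 fold change over the 8 genes was -0.16 in RD and 0.40 in Rh30, and over all genes tested 0.01 and 0.03. Libraries of the compared groups did not overlap for 5 of the 8 genes in RD, where 53.4% of all genes did not, and for 5 of 8 in Rh30, where the share was 45.8%. A call is an adjusted p under 0.05 in limma, with adjustment over all genes tested in the comparison.

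**Figure D2:**
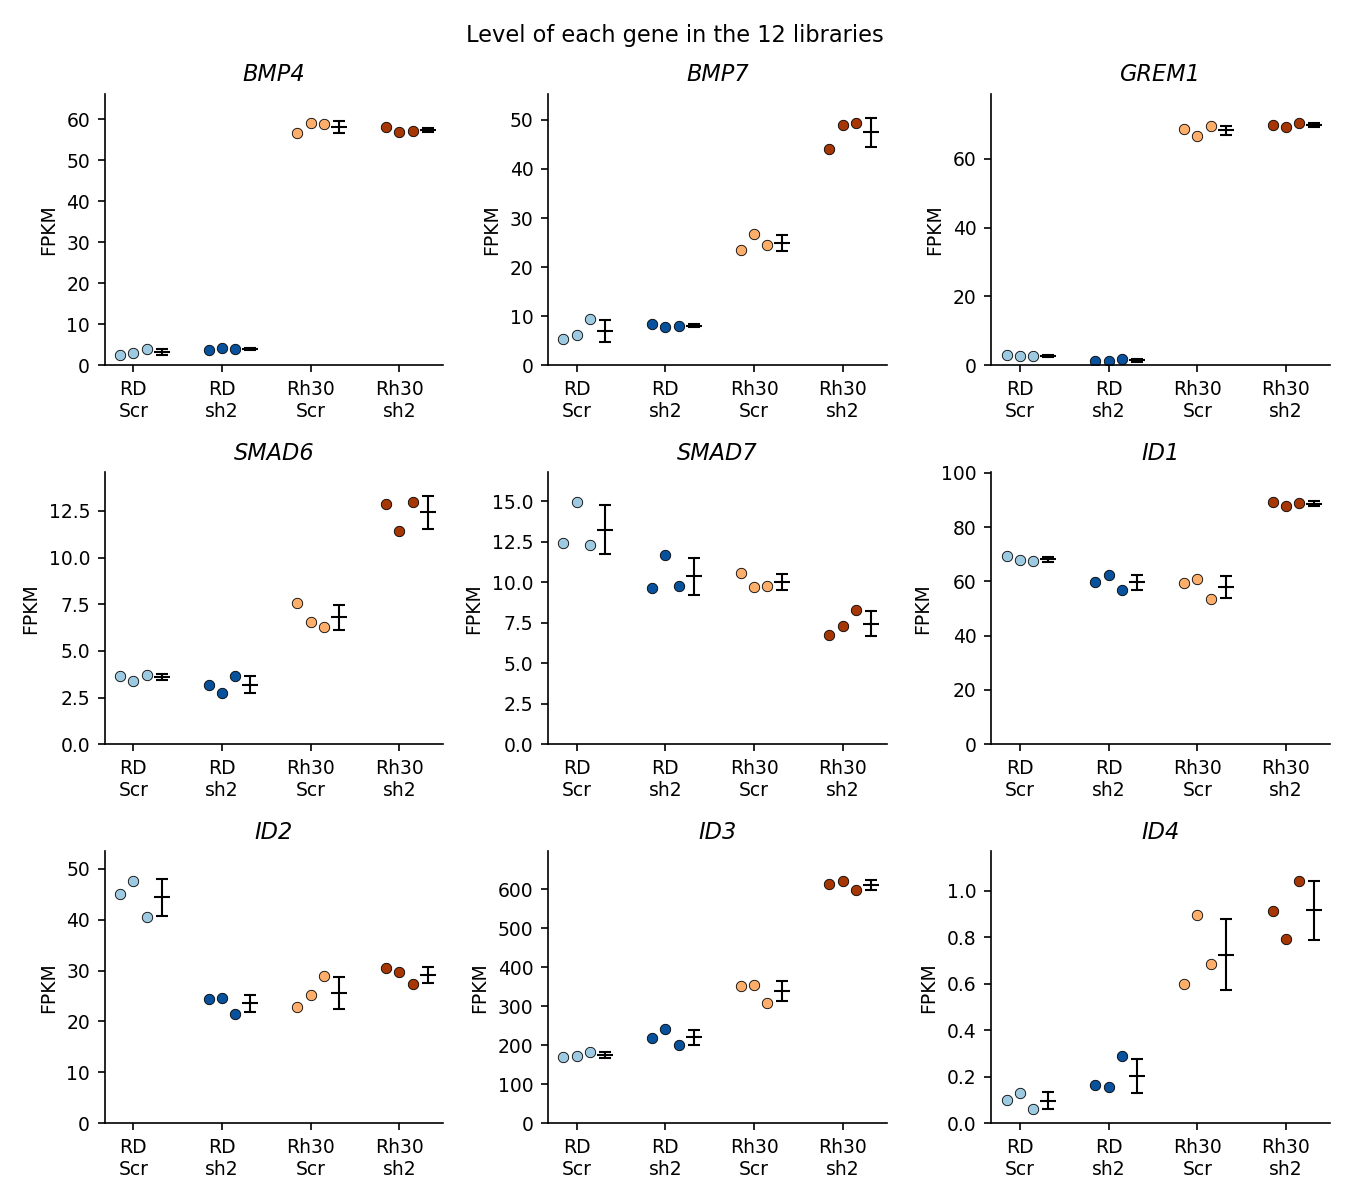
FPKM of each of the 9 genes in the 12 libraries (points; Scr, Scramble; sh2, KDM3A-sh2), with mean and SD of the 3 libraries beside them, each vertical axis starting at 0. BMP7, SMAD6, ID1 and ID3 stand highest in the Rh30 KDM3A-sh2 libraries, while SMAD7 stands lowest there and ID2 highest in RD Scramble.

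The ligands and the antagonist set the lines apart before any depletion. BMP4 (ENSG00000125378, chromosome 14, 53949736 to 53958761, GRCh38) was 2.54, 3.02 and 3.95 FPKM in RD Scramble and 56.5, 59.1 and 58.9 FPKM in Rh30 Scramble, 18.4-fold higher. GREM1 (ENSG00000166923, chromosome 15, 32717974 to 32745107), whose product binds BMP4 and BMP7, was 2.93, 2.56 and 2.64 FPKM against 68.5, 66.8 and 69.5 FPKM, 25.2-fold higher in Rh30. BMP7 (ENSG00000101144, chromosome 20, 57168748 to 57266629), the other ligand, was 5.31, 6.23 and 9.49 FPKM in RD and 23.4, 26.7 and 24.4 FPKM in Rh30, 3.55-fold higher. BMP4, BMP7 and GREM1 were thus all higher in the same line, with no overlap between libraries. This does not extend to antagonists in general. Of 6 other antagonists tested between the Scramble groups, 3 were higher in Rh30 and 3 lower (NOG, TWSG1 and NBL1). In Scramble cells all 8 tested genes differed between lines, 5 higher and 3 lower in Rh30, beside 35% and 39.6% of all genes tested, and none of the 8 overlapped between lines (77.5% of all genes did not). In limma fits on log2(FPKM + 1) over all genes that passed the filter, the log2 differences were 3.84 for BMP4 (adjusted p = 2.53e-07), 4.22 for GREM1 (adjusted p = 1.3e-08) and 1.72 for BMP7 (adjusted p = 0.000105).

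Upon KDM3A knockdown these 3 genes behaved differently from each other. BMP7 rose in Rh30, to 44.1, 48.9 and 49.5 FPKM (24.9 ± 1.68 to 47.5 ± 2.97, SD, n = 3; log2 fold change 0.91, SE 0.07, adjusted p = 0.000332). Every Rh30 KDM3A-sh2 library lay above every Scramble library. In RD cells BMP7 was 8.35, 7.68 and 8.05 FPKM with KDM3A-sh2, inside the range of the Scramble libraries (log2 fold change 0.21, 95% interval -0.22 to 0.63, adjusted p = 0.399). Replicate 3 of RD Scramble held the highest BMP7 and BMP4 of its group, and without it the RD changes were 0.42 for BMP7 (adjusted p = 0.0208) and 0.40 for BMP4 (adjusted p = 0.0492). The effect on BMP7 differed between the lines by 0.70 (SE 0.21, adjusted p = 0.0289, Rh30 minus RD), a call lost in 8 of 20 alternative analyses, among them the removal of RD KDM3A-sh2 replicate 2 or 3, Rh30 Scramble replicate 1 or 3, or Rh30 KDM3A-sh2 replicate 2 or 3 (adjusted p from 0.053 to 0.0628).

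BMP4 stayed near its starting level in Rh30, at 58.0, 56.9 and 57.2 FPKM with KDM3A-sh2, and its log2 fold change was -0.02 with a 95% interval of -0.11 to 0.07 (adjusted p = 0.726). In RD it was 3.68, 4.24 and 4.01 FPKM, overlapping Scramble (0.27, interval -0.07 to 0.60, adjusted p = 0.174). GREM1 fell in RD, to 1.30, 1.08 and 1.85 FPKM (2.71 ± 0.196 to 1.41 ± 0.397, SD, n = 3; log2 fold change -0.63, SE 0.15, adjusted p = 0.0142), and all 3 libraries lay under those of Scramble. In Rh30 GREM1 was 69.8, 69.4 and 70.6 FPKM, a log2 fold change of 0.03 with an interval of -0.05 to 0.12 (adjusted p = 0.521). The effect on GREM1 differed between lines by 0.67 (SE 0.14, adjusted p = 0.00407), and that on BMP4 by -0.29 (adjusted p = 0.157; -0.42 and adjusted p = 0.00902 without RD Scramble replicate 3). As a ratio of levels, GREM1 to BMP4 was 0.890 ± 0.245 in RD Scramble, 0.357 ± 0.104 in RD KDM3A-sh2, 1.17 ± 0.0424 in Rh30 Scramble and 1.22 ± 0.0150 in Rh30 KDM3A-sh2 (SD, n = 3).

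The levels of these 3 genes thus fell into clear orders. BMP7 was highest in Rh30 KDM3A-sh2, then Rh30 Scramble, then the RD groups, which overlapped each other. BMP4 had an Rh30 pair and an RD pair, each with overlapping libraries. GREM1 had an overlapping Rh30 pair, then RD Scramble, then RD KDM3A-sh2.

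SMAD6 and SMAD7, the 2 inhibitory SMADs, parted in Rh30 cells. SMAD6 (ENSG00000137834, chromosome 15, 66702228 to 66782848), which acts mostly on the BMP branch, was 7.54, 6.55 and 6.29 FPKM in Rh30 Scramble and 12.9, 11.4 and 13.0 FPKM in Rh30 KDM3A-sh2 (6.79 ± 0.659 to 12.4 ± 0.890, SD, n = 3; log2 fold change 0.79, SE 0.09, adjusted p = 0.00147). In RD it was 3.67, 3.41 and 3.72 FPKM with Scramble and 3.20, 2.73 and 3.65 FPKM with KDM3A-sh2, groups that overlapped (log2 fold change -0.14, interval -0.41 to 0.13, adjusted p = 0.368). The rise in Rh30 exceeded the RD change by 0.92 (SE 0.14, adjusted p = 0.000586). SMAD7 (ENSG00000101665, chromosome 18, 48919853 to 48952052), which blocks both the TGF-beta and BMP branches, went the other way in Rh30, from 10.6, 9.73 and 9.75 to 6.75, 7.33 and 8.27 FPKM (log2 fold change -0.39, SE 0.09, adjusted p = 0.0183). In RD it went from 12.5, 14.99 and 12.3 to 9.63, 11.7 and 9.79 FPKM (log2 fold change -0.32, SE 0.11, adjusted p = 0.0454). SMAD7 was therefore lower with KDM3A-sh2 in both lines without overlap, and the effects differed by -0.06 (interval -0.37 to 0.25, adjusted p = 0.784).

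These SMAD7 calls were close to the threshold. In RD the call was lost in 9 of 15 alternative analyses, with adjusted p from 0.0196 to 0.127 over all 15, and leaving out any RD library but KDM3A-sh2 replicate 2 ended it. In Rh30 it was lost in 4 of 15 (adjusted p from 0.0125 to 0.0612), among them leaving out Scramble replicate 1 or KDM3A-sh2 replicate 1 or 2. The direction was lower in all of them. The ratio of SMAD6 to SMAD7 was 0.677 ± 0.0339 in Rh30 Scramble and 1.68 ± 0.199 in Rh30 KDM3A-sh2, compared with 0.275 ± 0.0413 and 0.313 ± 0.0717 in the RD groups (SD, n = 3). SMAD6 was thus the less abundant transcript of the pair in every group except Rh30 KDM3A-sh2. In order of level, SMAD6 was highest in Rh30 KDM3A-sh2, then in Rh30 Scramble, then in the overlapping RD groups. SMAD7 was highest in RD Scramble and lowest in Rh30 KDM3A-sh2, with the 2 other groups overlapping between them. Without depletion Rh30 held more SMAD6 (log2 difference 0.76, adjusted p = 0.000217) and less SMAD7 (-0.37, adjusted p = 0.00823) than RD.

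Among the ID genes, ID3 was the most abundant and, of the 3 that were tested, the only one called higher with KDM3A-sh2 in both lines. ID3 (ENSG00000117318, chromosome 1, 23557918 to 23559794) was 169, 173 and 183 FPKM in RD Scramble, and 218, 241 and 201 FPKM in RD KDM3A-sh2 (175 ± 7.20 to 220.1 ± 19.7, SD, n = 3; log2 fold change 0.33, SE 0.07, adjusted p = 0.00838). In Rh30 it was 352, 353 and 308 FPKM with Scramble and 614, 622 and 597 FPKM with KDM3A-sh2 (338 ± 25.5 to 611 ± 12.8; log2 fold change 0.86, SE 0.06, adjusted p = 0.000221). The 4 groups did not overlap at any step of this order. The rise was larger in Rh30 by 0.53 (SE 0.10, adjusted p = 0.00208). The RD call was lost in 1 of 15 alternatives, that on unlogged FPKM (adjusted p = 0.0577).

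ID1, the best known BMP target of the family, moved in opposite directions. ID1 (ENSG00000125968, chromosome 20, 31605283 to 31606515) was 69.3, 67.8 and 67.5 FPKM in RD Scramble and 59.6, 62.3 and 57.0 FPKM in RD KDM3A-sh2 (68.2 ± 0.927 to 59.6 ± 2.66; log2 fold change -0.19, SE 0.04, adjusted p = 0.0124). In Rh30 it was 59.5, 61.0 and 53.3 FPKM with Scramble and 89.4, 87.6 and 88.9 FPKM with KDM3A-sh2 (57.9 ± 4.07 to 88.6 ± 0.915; log2 fold change 0.61, SE 0.06, adjusted p = 0.000657). The fall in RD was small and without overlap, and the rise in Rh30 was 1.53-fold. The difference between lines was 0.80 (SE 0.07, adjusted p = 1.96e-05). Rh30 Scramble and RD KDM3A-sh2, the 2 lowest groups, overlapped in level.

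ID2, which was highest in RD Scramble, fell most of the 8 tested genes in RD on the log2(FPKM + 1) scale, while as a plain ratio of means the fall was 1.89-fold for ID2 and 1.92-fold for GREM1. ID2 (ENSG00000115738, chromosome 2, 8678845 to 8684453) went from 45.1, 47.7 and 40.5 FPKM to 24.4, 24.7 and 21.5 FPKM in RD (44.4 ± 3.63 to 23.5 ± 1.72; log2 fold change -0.89, SE 0.08, adjusted p = 0.000229). In Rh30 it was 22.8, 25.1 and 28.9 FPKM with Scramble and 30.4, 29.8 and 27.4 FPKM with KDM3A-sh2, groups that overlapped (log2 fold change 0.19, interval -0.03 to 0.40, adjusted p = 0.163). Leaving out Rh30 Scramble replicate 3, the highest of its group, gave 0.28 (adjusted p = 0.0438). The effects differed by 1.08 (SE 0.13, adjusted p = 0.000139), the largest difference among the 8 genes. After the fall in RD, ID2 in RD KDM3A-sh2 overlapped Rh30 Scramble, the next group in the order. An antisense gene, ID2-AS1, overlaps the locus, at 0.498 to 1.81 FPKM, and whether counting used strand is not given in the sources used here.

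ID4 (ENSG00000172201, chromosome 6, 19837386 to 19840684) was the lowest of the family. Its level was 0.1002, 0.131 and 0.0591 FPKM in RD Scramble and 0.165, 0.155 and 0.288 FPKM in RD KDM3A-sh2. Rh30 cells held 0.598, 0.894 and 0.685 FPKM with Scramble and 0.913, 0.791 and 1.04 FPKM with KDM3A-sh2. Both Rh30 groups lay above both RD groups. The Rh30 groups overlapped each other, and the RD groups did not. With no filter on low values, RD gave a log2 fold change of 0.13 (adjusted p = 0.182), Rh30 gave 0.15 (adjusted p = 0.418), and Rh30 Scramble was above RD Scramble by 0.65 (adjusted p = 0.0009). An antisense gene, AL022068.1, overlaps the ID4 locus, at 0 to 0.891 FPKM, a range close to that of ID4 itself. As for ID2, whether counting used strand is not given in the sources used here.

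The ID pool as a whole was larger in Rh30 with KDM3A-sh2, and its makeup stood apart between shRNAs in both lines. Summed over ID1 to ID4, the level was 283 to 291 FPKM in RD Scramble and 280.1 to 328 FPKM in RD KDM3A-sh2, ranges that overlapped (exact permutation p = 0.4, two-sided). In Rh30 it was 391 to 440 FPKM with Scramble and 714 to 740 FPKM with KDM3A-sh2, 1.73-fold higher (exact permutation p = 0.1, the smallest possible with 3 against 3). ID3 supplied most of it in every library. Its share was 60.8 ± 1.78% in RD Scramble and 72.5 ± 0.820% in RD KDM3A-sh2 (SD, n = 3), and 80.0 ± 1.08% and 83.7 ± 0.266% in Rh30. ID2 went from 15.4 ± 1.35% to 7.76 ± 0.267% of the pool in RD and from 6.11 ± 1.13% to 4.00 ± 0.151% in Rh30, where ID2 itself was 25.6 and 29.2 FPKM and the sum was larger. Neither share overlapped between shRNAs in either line (exact permutation p = 0.1 in each case).

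**Figure D3:**
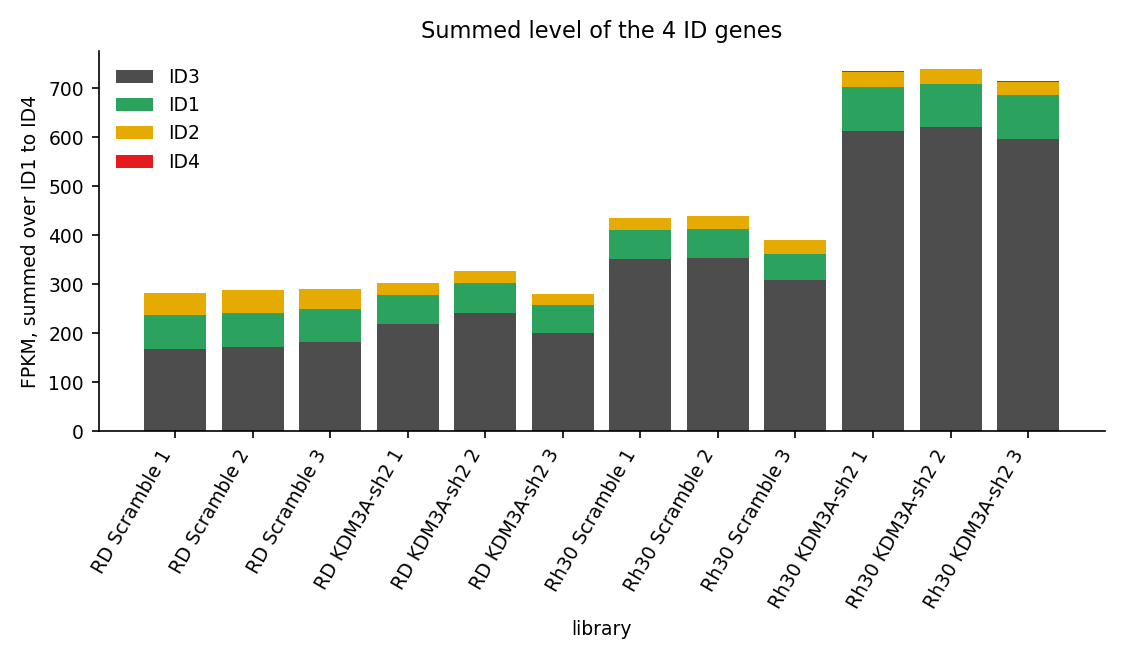
Stacked FPKM of ID3, ID1, ID2 and ID4 in each of the 12 libraries, with the vertical axis starting at 0. The Rh30 KDM3A-sh2 bars reach 714 to 740 FPKM, above all others, and the ID2 layer of the RD bars is thinner with KDM3A-sh2.

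**Figure D4:**
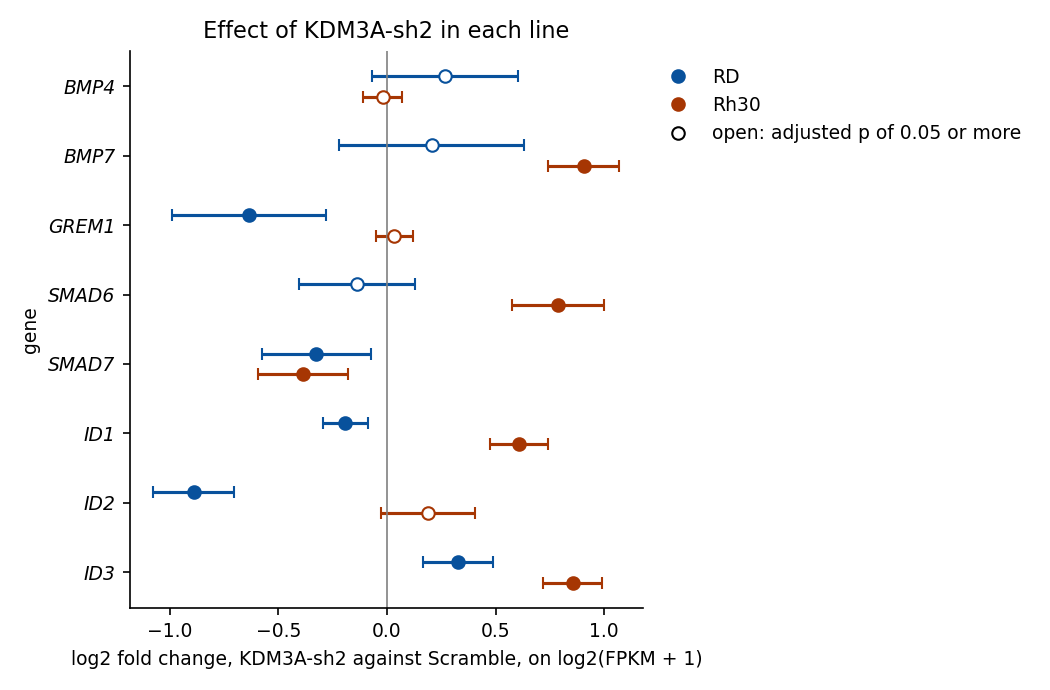
Log2 fold change of KDM3A-sh2 against Scramble on log2(FPKM + 1) for the 8 tested genes in RD and Rh30, with 95% intervals (bars); open points did not pass an adjusted p of 0.05. SMAD7 lies left of 0 in both lines and ID3 right of 0 in both, while ID1 lies on opposite sides.

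Over the 12 libraries, after subtraction of each line's mean, the pairs of genes with the most similar pattern were ID1 with SMAD6 (Pearson r = 0.91), ID3 with BMP7 (0.89) and ID2 with GREM1 (0.82). The points share their libraries and the shRNA contrast, so these values are descriptions. The pattern of ID1 with SMAD6 came mostly from Rh30, with r = 0.98 over its 6 libraries and 0.27 over the 6 of RD. By the same measure, among 11016 genes (11017 for SMAD6) whose mean reached 10 FPKM, the closest to ID1 were MYOG (0.98) and MYC (0.98), to ID3 ETFB and MAZ (0.99 and 0.98), and to BMP7 HINT2 and MRPL10 (0.98 and 0.95). The closest to SMAD6 were ZDHHC22 and DMRTA2 (both 0.97), to GREM1 PASK and POLA2 (both 0.96) and to BMP4 TRIOBP and NFKB1 (0.92 and 0.91). For ID2 they were PSPC1 and NPM1P27 (0.98 and 0.97) and for SMAD7 PRDX3P2 and EIF4G1 (0.96 and 0.95). NPM1P27 and PRDX3P2 are pseudogenes, whose reads can be shared with their parent genes.

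ATOH8, MSX1 and HEY1, transcription factors known to respond to BMP, were lower in RD and higher in Rh30, as ID1 was. Of 8 such factors, 6 were tested, with 3 lower and none higher in RD and 3 higher and none lower in Rh30. The effect differed between the lines for 3 of them, each time higher in Rh30. Over all genes tested, 21.6% were higher and 19.5% lower in RD, and 15.3% and 13.2% in Rh30. The effect was higher in Rh30 for 14.4% of all genes and lower for 13.4%. The list was chosen with earlier results of these data known. ATOH8, a basic helix-loop-helix factor, was 29.5, 29.4 and 31.5 FPKM in RD Scramble and 22.9, 24.9 and 21.9 FPKM in RD KDM3A-sh2 (log2 fold change -0.36, adjusted p = 0.00354). In Rh30 it went from 184, 186 and 165 FPKM to 256, 259.7 and 268 FPKM (0.55, adjusted p = 0.000759). ATOH8 thus fell in RD and rose in Rh30 without overlap in either line. MSX1, a homeobox repressor that holds back muscle differentiation, fell from a mean of 19.9 to 12.8 FPKM in RD (-0.60, adjusted p = 0.000739) and rose from 11.3 to 15.5 FPKM in Rh30 (0.43, adjusted p = 0.00428). HEY1, which also answers to Notch, fell from 208 to 173 FPKM in RD (-0.27, adjusted p = 0.000684) and went from 5.50 to 7.35 FPKM in Rh30 (0.37, adjusted p = 0.035), a call lost in 9 of 14 alternatives. The differences between lines were 0.91 for ATOH8 (adjusted p = 1.93e-05), 1.03 for MSX1 (adjusted p = 2.11e-05) and 0.63 for HEY1 (adjusted p = 0.000715). The other tested factors were called in neither line. Their log2 fold changes in RD and Rh30 were 0.03 and -0.16 for MSX2, 0.04 and 0.26 for DLX2, and -0.17 and -0.11 for RUNX2, none of them with the signs of ID1.

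The E proteins, which ID proteins bind, and the myogenic bHLH factors that pair with E proteins were less uniform. Of 7 E proteins and myogenic bHLH factors, 5 were tested, with 3 lower in RD and 2 higher and 1 lower in Rh30. For these counts and those of the muscle markers below, the shares of all genes were 21.6% higher and 19.5% lower in RD. In Rh30 they were 15.3% and 13.2%. MYOG (myogenin), a driver of terminal muscle differentiation, was 173, 188 and 192 FPKM in RD Scramble and 167, 171 and 163 FPKM in RD KDM3A-sh2 (log2 fold change -0.14, adjusted p = 0.049, lost in 10 of 15 alternatives). In Rh30 MYOG went from 700, 725 and 647 FPKM to 1017 FPKM on average (0.56, adjusted p = 0.0004). MYOD1 fell in RD from 134 to 113 FPKM (-0.24, adjusted p = 0.00383) and went from 770 to 930 FPKM in Rh30 (0.28, adjusted p = 0.0222, lost in 6 of 15 alternatives). The lines differed in the effect on MYOG (0.70, adjusted p = 3.06e-05) and MYOD1 (0.52, adjusted p = 0.000913). Of the E proteins, TCF3 fell in RD (-0.34, adjusted p = 0.00109) and TCF12 was lower in Rh30 (-0.12, adjusted p = 0.033, lost in 8 of 15). In the wider list of 7 muscle lineage markers, 6 were tested, with 3 higher and 3 lower in RD and 2 higher and 3 lower in Rh30, and other members went against MYOG and MYOD1. CHRNA1, a subunit of the muscle acetylcholine receptor, rose in RD from 1037, 1099 and 1087 to 1441, 1417 and 1449 FPKM (0.42, adjusted p = 0.000127) and fell in Rh30 from 449, 470.3 and 449.8 to 290.8, 290.9 and 294 FPKM (-0.64, adjusted p = 8.55e-05). CHRND, another subunit, rose in RD (0.51, adjusted p = 0.000224) and fell in Rh30 (-0.69, adjusted p = 0.000139). CDH15, the muscle cadherin, fell in RD (-0.60, adjusted p = 0.000268) and less so in Rh30 (-0.25, adjusted p = 0.0332). The Rh30 call of CDH15 was not put through the alternatives, and its nearest libraries held 257.7 FPKM (Scramble) and 251.2 FPKM (KDM3A-sh2). Their summed level was 2222 to 2451 FPKM in RD Scramble and 2776 to 2899 FPKM in RD KDM3A-sh2, and 2549 to 2828 and 2891 to 2922 FPKM in Rh30. The part of muscle state in the changes of the ID genes was not tested. TCF4, called in neither line, differed between them (-0.34, adjusted p = 0.0471), a call not put through the alternatives.

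**Figure D5:**
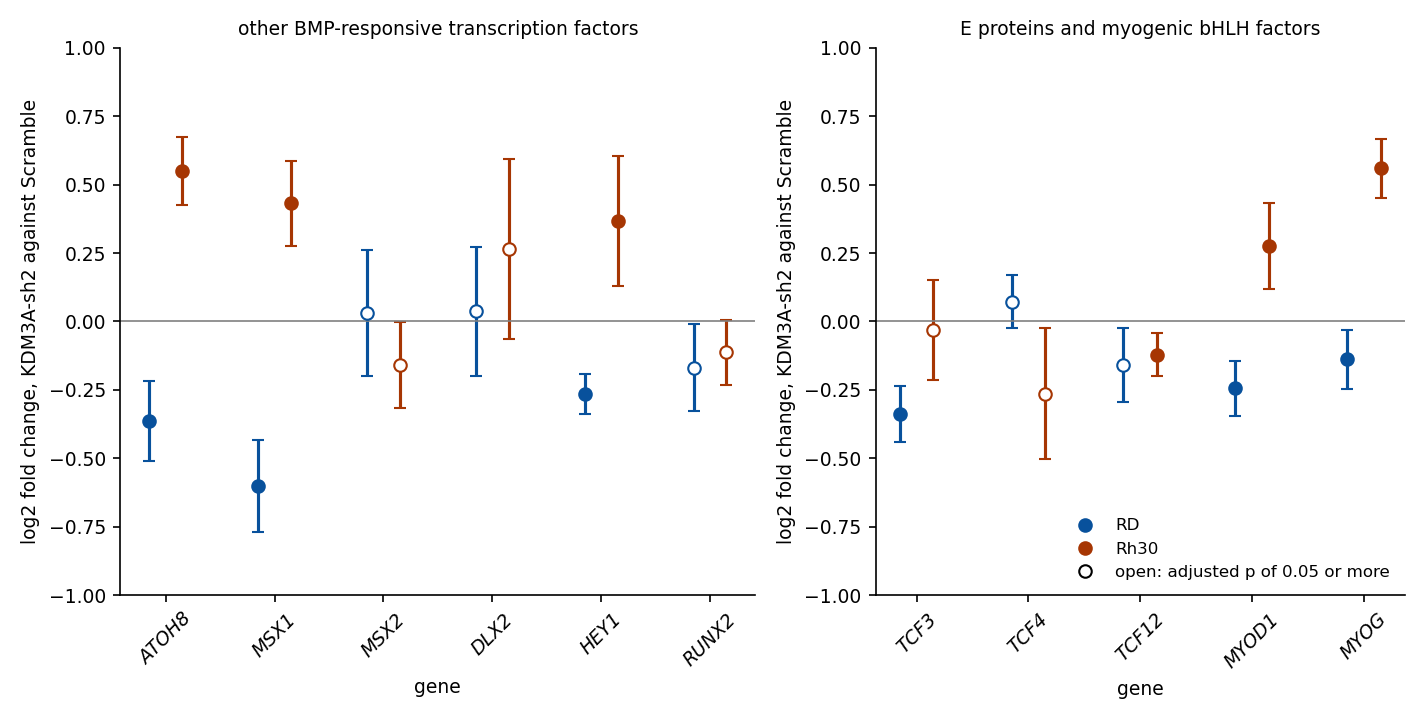
Log2 fold change of KDM3A-sh2 against Scramble, with 95% intervals, for the tested BMP-responsive transcription factors (left) and the tested E proteins and myogenic bHLH factors (right), in RD and Rh30; open points had an adjusted p of 0.05 or more. ATOH8, MSX1, HEY1, MYOD1 and MYOG each lie below 0 in RD and above 0 in Rh30.

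Of 10 receptors and co-receptors, 9 were tested in each line, with 3 higher and 3 lower in RD, and 1 higher and 2 lower in Rh30, where 15.3% of all genes were higher and 13.2% lower (21.6% and 19.5% in RD). With so few genes these counts show nothing particular to the receptors. The type I receptor ACVR1 rose in both (0.36, adjusted p = 0.000783, and 0.33, adjusted p = 0.00254), and the type II receptor BMPR2 fell in both (-0.30, adjusted p = 0.00739, and -0.38, adjusted p = 0.00781). ACVR2B, another type II receptor, fell in RD (-0.49, adjusted p = 0.00319), and the co-receptor RGMA was lower in RD (-0.46, adjusted p = 0.0047) and also in Rh30 (-0.21, adjusted p = 0.0224, lost in 7 of 15 alternatives). Of 11 other ligands, 2 could be tested in Rh30, where BMP5 was 31.4 and 36.0 FPKM with Scramble and KDM3A-sh2 (0.19, adjusted p = 0.0336, lost in 10 of 15) and BMP8B fell from 3.77 to 2.47 FPKM (-0.46, adjusted p = 0.0139). In RD, 1 ligand was tested and not called.

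Among 11 other antagonists, 3 of 5 tested were higher in RD and none lower, and 2 of 7 were higher and 1 lower in Rh30. Of all genes tested, 21.6% were higher and 19.5% lower in RD, and 15.3% and 13.2% in Rh30. With so few genes, a trait of the antagonists cannot be read from these counts. NOG (Noggin), which sequesters BMPs outside the cell, rose from 35.4 to 50.5 FPKM in RD (0.50, adjusted p = 0.000969) and differed between lines by -0.60 (adjusted p = 0.00145). NBL1, a DAN-family antagonist, also rose in RD (0.32, adjusted p = 0.00343), and FST (follistatin) rose there (0.37, adjusted p = 0.0144) and in Rh30 (0.31, adjusted p = 0.0158, lost in 5 of 15). RD thus had more NOG and less GREM1 transcript upon KDM3A knockdown. SOSTDC1 rose in Rh30, from 2.20, 2.62 and 3.28 to 6.14, 5.70 and 5.75 FPKM (0.90, adjusted p = 0.00306), and was listed at 0 in every RD library. TWSG1 was lower in Rh30 (-0.17, adjusted p = 0.0447, lost in 8 of 15).

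Among 12 SMADs and SMAD regulators, 2 rose and 2 fell in each line, of 11 tested in RD and 12 in Rh30. The shares of all genes tested were 21.6% higher and 19.5% lower in RD, and 15.3% and 13.2% in Rh30. These counts therefore show nothing particular to the SMADs and their regulators. SMAD9, a BMP receptor SMAD, rose in Rh30 from 14.1, 18.2 and 14.3 FPKM to 27.4, 29.6 and 30.1 FPKM (0.87, adjusted p = 0.00161) and was under 1 FPKM in every RD library. In RD it was SMAD1, the receptor SMAD most studied in BMP signaling, that rose, from 55.2 to 86.6 FPKM (0.64, adjusted p = 0.000314), as did SMURF2, a ubiquitin ligase that targets SMADs and receptors, from 80.6 to 140.2 FPKM (0.79, adjusted p = 2.36e-05). The effects on SMAD1 (-0.74, adjusted p = 0.00165) and SMURF2 (-0.75, adjusted p = 9.19e-05) differed between the lines. ZNF423, a cofactor of BMP SMADs, fell in RD (-0.40, adjusted p = 0.013, lost in 2 of 15 alternatives) and had a log2 fold change of -0.46 in Rh30 (adjusted p = 0.227), with a difference between lines of -0.07 (adjusted p = 0.896). In Rh30 the phosphatase PPM1A was lower (-0.34, adjusted p = 0.0257, lost in 7 of 15 alternatives) and the ubiquitin ligase RNF111 higher (0.23, adjusted p = 0.0487, lost in 11 of 15).

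The 3′ UTRs were searched for TGAAGCA, a word picked because earlier results of these data named it. It was present in the longest annotated 3′ UTR (GENCODE 29) of 2 of the 9 genes, GREM1 and ID4, and of 16.7% of the genes tested in RD that have a 3′ UTR of at least 50 bases (16.9% in Rh30). These shares are not matched for 3′ UTR length, which is 13862 bases in GREM1. The sites are shown with their neighbours, the word in capitals, because GREM1 fell in RD cells. In Rh30 cells the log2 fold change of GREM1 was 0.03 (adjusted p = 0.521 in limma).
GREM1, from base 4344 of 13862 in the 3′ UTR, 1 of 2 sites: aacccaagatcTGAAGCAttcagtcaaag
ID4, from base 897 of 1489: atctttgtattTGAAGCAtacatgttgaa
ID2, ID3, SMAD6 and BMP4 had neither this word nor its 6-base parts TGAAGC and GAAGCA. SMAD7, which was lower in both lines, had 2 matches to the 6-base parts and none to the whole word. BMP7, which rose in Rh30, also had 2, and ID1, which fell in RD and rose in Rh30, had 1. Of the tested genes with a 3′ UTR of at least 50 bases, 50.1% in RD and 50.6% in Rh30 held a 6-base part. A match is a description of letters and was not tested against the changes.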

How the data were processed

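RNA-seq was analysed from 12 libraries, 3 for each of RD and Rh30 with Scramble or KDM3A-sh2. Per the submitters' processing notes, GSNAP, SAMtools and Cufflinks were used on GRCh38, and the deposited values are FPKM without a log, per gene. Libraries were directional and read from 1 end (Methods of the study), where reads are shorter than the 151 bases that the labels give. The annotation release and strand setting of the counting are not given in the sources used here. FPKM are not counts, so count tests were not used. Repeated identifiers (120 of 66095 entries) were left out, keeping the higher mean, and the value 999999999 was read as missing. The comparisons were KDM3A-sh2 against Scramble within RD and within Rh30, the difference of these effects over 12 libraries, and Rh30 against RD in Scramble, with limma 3.58.1 (R 4.3.3; lmFit, eBayes with trend) on log2(FPKM + 1) for genes whose mean was 1 FPKM or more, two-sided, adjusted by Benjamini-Hochberg over all genes at 0.05. Fold changes on this scale understate those of low genes. Sums and ratios were compared by exact permutation in Python 3.11.15. The fits were tested on simulated data. The genes and pathway lists were chosen with earlier results of these data known. Named were all 9 genes, KDM3A, up to 3 called genes with the largest change of each list and line, and the 2 closest genes by correlation. Alternatives covered pseudocount (0.1), filters, scaling, ANOVA, a 12-library fit, a replicate block, single libraries left out and a 1.5-fold requirement.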

Additional observations from a re-analysis of the deposited data

Results flagged for a closer look

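In the interaction term of limma, the response to KDM3A-sh2 was unequal in the 2 lines for 6 of the 8 tested genes of the ID and BMP feedback group, given here as Rh30 minus RD on the log2 scale with the adjusted p. The differences were 0.80 for ID1 (1.96e-05), 1.08 for ID2 (0.000139), 0.53 for ID3 (0.00208), 0.92 for SMAD6 (0.000586), 0.70 for BMP7 (0.0289) and 0.67 for GREM1 (0.00407). KDM3A itself differed by 0.37 (0.0388), with the larger fall in RD. Among the pathway and muscle marker genes named and tested in both lines, the effect was higher in Rh30 for MSX1 (1.03), ATOH8 (0.91), MYOG (0.70), HEY1 (0.63), MYOD1 (0.52), CDH15 (0.35), TCF3 (0.30), ACVR2B (0.29) and RGMA (0.25). It was lower in Rh30 for CHRND (-1.20), CHRNA1 (-1.06), SMURF2 (-0.75), SMAD1 (-0.74), NOG (-0.60), NBL1 (-0.55) and TWSG1 (-0.30). The adjusted p ran from 8.73e-08 for CHRNA1 to 0.0452 for RGMA. SOSTDC1 (0.90), SMAD9 (0.92) and BMP8B (-0.40) also passed, but were under the filter in RD and entered only through their Rh30 level, so these values are not comparisons of 2 measured responses. SOSTDC1 is listed at 0 in RD, so its value is the Rh30 fold change itself, and BMP8B had an adjusted p of 0.528 with a pseudocount of 0.1. The calls of ACVR2B, RGMA and TCF3 were lost in 9, 14 and 11 of 20 alternatives, and RGMA changed sign, with a call (adjusted p = 0.0461), on unlogged FPKM.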

How the results depend on the processing

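Of the alternative values for the 8 tested genes, 486 kept direction and call, 22 lost the call, 5 gained it and 2 changed sign. Both sign changes were in the SMAD7 difference between lines, never called: 0.30 (a difference in FPKM) by ANOVA on unlogged FPKM and 0.020 without RD KDM3A-sh2 replicate 2, the highest of -0.15 to 0.020 with 1 library left out. In the same ANOVA the differences of RGMA (-9.59 FPKM, adjusted p = 0.0461, a call in the opposite direction) and CDH15 (-20.9 FPKM, adjusted p = 0.354) changed sign. The 5 genes called in RD became 3 by that ANOVA and 2 when a 1.5-fold change was required, and 4 to 6 with 1 library left out. The 18 other pathway genes called in Rh30 became 9 with the replicate block and 9 to 12 with 1 library left out. Same-numbered libraries did not deviate together (correlations from -0.07 to 0.06), so the numbers, taken from the titles, were not used as pairs. The block gave 5, 4, 6 and 8 called genes in RD, Rh30, the difference and the lines, where SMAD7 in Rh30 was lost (adjusted p = 0.057), and over all genes it lowered the Rh30 calls from 5066 to 3421 and the genes higher there from 2719 to 1798. On the scale of equal sums the differences between lines split 2061 above and 3015 below 0, compared with 2665 and 2486, and the median over all genes for Rh30 against RD went from -0.04 to -0.14. No direction among the 8 genes changed with scaling. FPKM carry no read number, so depth limits could not be set, and changes of low genes such as ID4 are the least certain.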
